A study of Mus musculus with 84 samples.

Results

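The renin-angiotensin system was followed in liver and epididymal white adipose tissue (eWAT) through 6 genes of the 48794 that the tables list: *Ren1*, *Agt*, *Ace*, *Agtr1a*, *Enpep* and *Atp6ap2*. The 6 genes were chosen by name, around *Ren1*, which was itself chosen by its measured values: in liver it had the largest rise that was seen with BI 456906 and not with semaglutide, on few reads. The question put to the data is whether the other genes of the axis moved with it. RNA sequencing was performed on 84 libraries, 42 per tissue, from male C57BL/6J mice with diet-induced obesity (DIO). In each tissue 7 groups of 6 libraries were compared.

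All groups shared the strain, the sex, a diet with 60% of its energy from fat, single housing, an age of 22 weeks at the start, and daily subcutaneous dosing for 30 days. Of the 7 groups, 1 received vehicle and 4 received BI 456906, an acylated peptide that activates the receptors for glucagon and for glucagon-like peptide-1 (GLP-1), at 3, 10, 20 or 30 nmol/kg. The remaining groups received semaglutide, an acylated peptide that activates the GLP-1 receptor alone, at 20 or 100 nmol/kg. The study's methods name 11 mice randomised to each group. The labels do not say from which mouse a library came. The p-values therefore measure the spread between libraries, and the liver and eWAT of the same mouse could not be joined. The C57BL/6 strain carries *Ren1* as its only renin gene, without the *Ren2* copy of some other strains.

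Renin cleaves angiotensinogen, the product of *Agt*, to angiotensin I. Angiotensin-converting enzyme (*Ace*) turns angiotensin I into angiotensin II, which raises blood pressure and aldosterone through the type 1a receptor (*Agtr1a*), and aminopeptidase A (*Enpep*) shortens angiotensin II to angiotensin III. *Atp6ap2* encodes the (pro)renin receptor, which is also an accessory protein of the vacuolar proton pump. Hepatocytes are the main source of circulating angiotensinogen, adipocytes also make it, and renin in the circulation comes from juxtaglomerular cells of the kidney.

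Library depth was 21676902 to 53869104 reads in liver and 37573004 to 53996914 in eWAT. The tissue labels held against markers: 8 of 8 hepatocyte markers had a median above 1 TPM (a transcript level scaled to gene length and library depth) in liver, where their summed level was at least 92569 TPM, and 6 of 6 adipocyte markers did so in eWAT. In liver the summed level of 9 kidney markers never exceeded 0.55 TPM, and 8 of the 9 stayed below 0.1 TPM in every library. The summed level of 5 adrenal markers in liver reached at most 1.58 TPM, and 4 of 4 testis germ cell markers were below 0.1 TPM in every liver library. In eWAT the hepatocyte markers ranged from 8.34 to 7889 TPM in sum, and these values are given beside *Agt*.

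The starts of *Ren1* and *Agt*, whose liver levels were both higher at higher doses of BI 456906, are shown because each holds a TATA box on the strand of the gene. In the GENCODE annotation *Ren1* lies on chromosome 1 (GRCm38, 133350510 to 133360325, plus strand) and *Agt* on chromosome 8 (124556534 to 124569706, minus strand). The windows below are genomic sequence from RefSeq (GRCm38.p6), read 5′ to 3′ on the strand of the gene, with TATAAA in capitals, and they cover chr1:133350633-133350662 and chr8:124569719-124569748.
Ren1: atacatggtgtgTATAAAagaaggctcagg
Agt: ccaccccttgagTATAAAtaagcctgcttg
The RefSeq start of *Ren1* lies inside the gene as GENCODE draws it, so the window of *Ren1* also falls within the coordinates given above. The motif began 29 bases before the RefSeq start of *Ren1* and 30 bases before that of *Agt*. TATAAA on the strand of the gene was found in 8.32% of 32851 promoters of the same length (250 bases before to 50 after the start), and on either strand in 13.6%. On the other strand it also lay in a window of *Ace* and in that of *Enpep*. TGACG, the core of the cAMP response element, was searched on both strands in the same windows and was found in none of those of *Ren1*, *Agt*, *Ace* and *Enpep*, once in that of *Atp6ap2*, and in 20.8% of all promoters. The full element TGACGTCA, which contains TGACG, was in none of these windows and in 1.79% of all promoters. *Agtr1a* had no entry among the promoters and was not searched. A match or its lack describes these windows only.

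In liver, *Ren1*, the enzyme that starts the cascade, was read more often at each higher dose of BI 456906 from 10 nmol/kg. Because vehicle, 30 nmol/kg and both semaglutide groups chose this gene, their values are a description. The vehicle libraries held 0 to 2 *Ren1* reads (median 0.5) and 3 of 6 held none. At 3 nmol/kg the range was again 0 to 2 reads, at 10 nmol/kg it was 1 to 12 (median 5), at 20 nmol/kg 10 to 30 (median 17) and at 30 nmol/kg 15 to 32 (median 27). With semaglutide, *Ren1* was at 0 to 4 reads at 20 nmol/kg and 0 to 8 at 100 nmol/kg. In reads the libraries at 20 and 30 nmol/kg of BI 456906 lay above every vehicle and semaglutide library, while those at 10 nmol/kg overlapped both. Scaled to depth, 20 nmol/kg met semaglutide at 100 nmol/kg, since its lowest library, replicate 65, had 0.246 RPM (reads scaled to library depth) and replicate 81 of semaglutide had 0.266 RPM.

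Summed over the 6 libraries of a group, there were 4 reads in vehicle, 33 at 10 nmol/kg, 110 at 20 nmol/kg and 150 at 30 nmol/kg. After scaling to depth, the 30 nmol/kg group held 37.4 times the *Ren1* reads of vehicle (95% exact interval 14.3 to 139, counting error only), and the 20 nmol/kg group held 28.2 times (10.7 to 105). Against semaglutide the 30 nmol/kg group held 21.9 times the reads of 20 nmol/kg (9.81 to 60.5) and 13.4 times those of 100 nmol/kg (7.27 to 27.4). At the matched dose of 20 nmol/kg the ratio of BI 456906 to semaglutide was 16.5 (7.33 to 45.8). Each of these ratios uses a group that chose the gene, so they are a description and no test. Their intervals treat pooled reads as independent and leave out the spread between libraries. The slope over 3, 10 and 20 nmol/kg was 2.42 ± 0.33 log2 units per 10 nmol/kg (SE, n = 6 per dose) by limma/voom. It is also a description, because *Ren1* passed the count filter through the groups where it was high: 10 or more reads were reached in every library at 20 and 30 nmol/kg, in 1 library at 10 nmol/kg and in no other. The size of this slope depends on the value added to low counts, since it was 0.26 on log2(TPM + 1).

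In absolute terms the level stayed small. Mean *Ren1* was 0.013 TPM in vehicle, 0.402 TPM at 20 nmol/kg and 0.528 ± 0.180 TPM (SD, n = 6) at 30 nmol/kg, against 714 TPM for *Agt* in the same 30 nmol/kg livers. TPM departed from the reads in 1 library: replicate 55 at 10 nmol/kg was listed at 0.79 TPM, the highest of the 42 liver libraries, on 5 reads. The 4 liver libraries with the most *Ren1* reads among all groups, with 28 to 32 reads, had kidney marker sums of 0.06 to 0.21 TPM and no testis marker signal. In bulk tissue a change in the number of cells of a type and a change in the RNA per cell cannot be told apart.

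**Figure D1:**
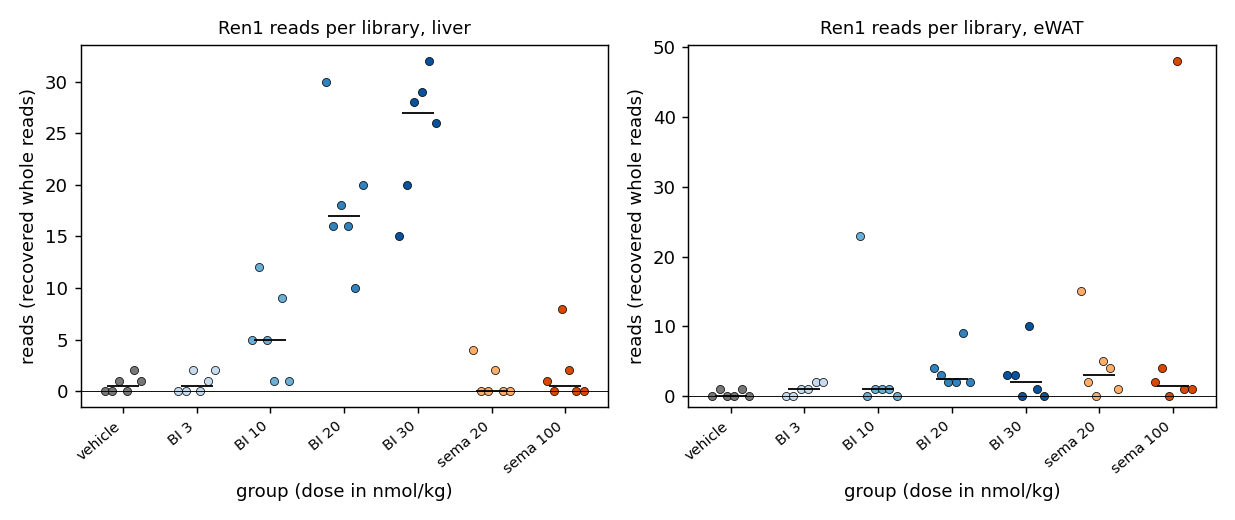
*Ren1* reads per library (vertical axis, recovered whole reads) in the 7 groups of liver (left) and eWAT (right), with a black bar at the median of the 6 libraries. In liver the reads climb from 0 to 2 in vehicle to 15 to 32 at 30 nmol/kg of BI 456906, whereas in eWAT single libraries stand high in several groups, up to 48 reads with semaglutide at 100 nmol/kg.

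In eWAT *Ren1* stayed below the count filter and showed no ordered pattern. The vehicle libraries held 0 or 1 read, and those at 30 nmol/kg of BI 456906 held 0 to 10 (median 2). The largest values sat in single libraries of other groups: 48 reads in replicate 40 with semaglutide at 100 nmol/kg, where the next library had 4, 23 reads in replicate 13 at 10 nmol/kg of BI 456906, and 15 reads in replicate 31 with semaglutide at 20 nmol/kg. In these 3 libraries the kidney marker sum was 0.79 to 1.68 TPM, against 0.32 to 1.68 TPM (median 0.81) in all eWAT libraries. Replicate 31 held the highest of these sums. The adrenal marker sum was 10.1 to 17.2 TPM in these 3 libraries, against 5.09 to 25.6 TPM (median 12.2) in all eWAT libraries. For 30 nmol/kg against vehicle, an exact two-sided permutation test over all 924 arrangements of the depth-scaled reads gave p = 0.139, with means of 0.0604 and 0.00773 RPM. The same exact permutation test on TPM gave p = 0.348.

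The rest of the axis differed from vehicle in liver by at most 1.31-fold at the highest dose. At 30 nmol/kg of BI 456906 against vehicle, *Agt*, *Agtr1a* and *Enpep* rose, and *Ace* and *Atp6ap2* did not pass the test, so that 3 of the 5 members other than *Ren1* were called (limma/voom, FDR of at most 0.05). Among all 15964 genes tested in liver 58.8% were called in this comparison and 28.9% were called higher, so a share of 3 in 5 is near the background. The TPM of 2 of the 5, *Agt* and *Agtr1a*, did not overlap vehicle, which held for 29.4% of all genes. The median log2 fold change of the 5 members was 0.33, and that of all genes was -0.03.

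*Agt*, the substrate of renin and a product of hepatocytes, was the member whose liver response separated the compounds. Its vehicle level was 484 to 521 TPM (median 513) and its level at 30 nmol/kg of BI 456906 was 643 to 880 TPM (median 682). Every library at 10, 20 and 30 nmol/kg lay above every vehicle library, whereas at 3 nmol/kg the range of 439 to 623 TPM spanned that of vehicle. The log2 fold change was 0.00 ± 0.08 (SE) at 3 nmol/kg (FDR 0.98), 0.21 ± 0.08 at 10 (FDR 0.040), 0.28 ± 0.08 at 20 (FDR 0.0045) and 0.39 ± 0.08 at 30 nmol/kg (FDR 7.1e-05), the last a 1.31-fold rise. The slope over vehicle to 30 nmol/kg was 0.14 ± 0.02 per 10 nmol/kg (FDR 4.1e-06). Over 3, 10 and 20 nmol/kg alone it was 0.16 ± 0.05 (FDR 0.024), and *Agt* was the only one of the 5 members to pass there, where 13.2% of all genes passed.

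*Agt* did not pass the test with semaglutide, although some livers at 100 nmol/kg lay above vehicle. The libraries at 20 nmol/kg held 510 to 555 TPM (median 526) and those at 100 nmol/kg 508 to 658 TPM (median 554). At 100 nmol/kg 3 of 6 libraries, at 590, 645 and 658 TPM, were above every vehicle library and within the range seen at 10 nmol/kg of BI 456906. The log2 changes against vehicle were -0.04 (95% interval -0.20 to 0.12, FDR 0.70) and 0.08 (-0.09 to 0.24, FDR 0.44). At the matched dose of 20 nmol/kg, *Agt* was higher with BI 456906 than with semaglutide by 0.32 ± 0.08 on the log2 scale (FDR 0.022). It was the only one of the 5 members called in that comparison, where 2.42% of all liver genes were called. At 30 nmol/kg of BI 456906 *Agt* was also higher than at 20 nmol/kg of semaglutide (0.44 ± 0.08, FDR 0.00028, with 13.6% of all genes called) and higher than at 100 nmol/kg (0.32 ± 0.08, FDR 0.0095, with 9.75% called). The doses of these last comparisons differ. *Agt* was again the only one of the 5 called in each. The summed hepatocyte markers had medians of 95709 TPM in vehicle, 113840 TPM at 30 nmol/kg of BI 456906 and 112430 TPM at 100 nmol/kg of semaglutide, and their part in the *Agt* result was not tested.

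*Agtr1a*, the receptor through which angiotensin II acts, rose with both compounds alike in direction. Its vehicle level in liver was 37.7 to 47.4 TPM (median 38.8). The groups at 20 and 30 nmol/kg of BI 456906 (50.2 to 57.3 and 49.6 to 61.5 TPM) and both semaglutide groups (49.1 to 58.7 and 53.4 to 60.5 TPM) lay wholly above it. On the log2 scale *Agtr1a* changed by 0.20 ± 0.06 at 10 nmol/kg (FDR 0.0079), 0.31 ± 0.06 at 20 (FDR 7.7e-05) and 0.33 ± 0.06 at 30 nmol/kg (FDR 1.4e-05). Semaglutide gave 0.32 ± 0.06 at 20 (FDR 5.6e-05) and 0.40 ± 0.06 at 100 nmol/kg (FDR 1.4e-06). The compounds at the matched dose of 20 nmol/kg differed by -0.01 (95% interval -0.13 to 0.11, FDR 0.97). The slope over vehicle to 30 nmol/kg was 0.10 ± 0.02 per 10 nmol/kg (FDR 9.6e-06).

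*Enpep*, the aminopeptidase that removes the leading residue of angiotensin II, held 17.7 to 31.6 TPM (median 19.9) in vehicle livers. At 10 nmol/kg it held 27.97 to 41.1 TPM, at 20 nmol/kg 23.4 to 41.6 TPM and at 30 nmol/kg 26.4 to 40.8 TPM (median 30.1), each overlapping vehicle through the vehicle replicates 44 and 47. The log2 changes were 0.42 ± 0.14 (FDR 0.019), 0.44 ± 0.14 (FDR 0.011) and 0.39 ± 0.14 (FDR 0.017). These 3 values lay within 1 SE of each other. With semaglutide they were 0.24 ± 0.14 (FDR 0.17) at 20 and 0.13 ± 0.14 (FDR 0.47) at 100 nmol/kg. The difference between the compounds at 20 nmol/kg was 0.20 (95% interval -0.09 to 0.49, FDR 0.56), so a difference between compounds was not shown. The call at 30 nmol/kg was lost without vehicle replicate 43 or 46 or without replicate 70 at 30 nmol/kg (FDR 0.059, 0.052 and 0.058) and, narrowly, with library size alone (FDR 0.050), and that at 10 nmol/kg with only the groups compared (FDR 0.059). Quality weights called *Enpep* at both semaglutide doses (0.40, FDR 0.0031, and 0.34, FDR 0.019).

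*Ace*, the converting enzyme, was a low transcript in liver and its values pointed down. It held 0.50 to 1.74 TPM (84 to 267 reads) in vehicle and 0.58 to 1.42 TPM at 30 nmol/kg of BI 456906, and no group was apart from vehicle. With semaglutide it fell, in log2 units, by 0.68 at 20 nmol/kg (SE 0.21, FDR 0.0068) and by 0.51 at 100 nmol/kg (SE 0.20, FDR 0.035), and with BI 456906 by 0.50 at 20 nmol/kg (SE 0.20, FDR 0.039). The last 2 calls passed in 7 of 11 alternatives each: both were lost without the filter (FDR 0.072 and 0.077), on log2(TPM + 0.1) (FDR 0.085 and 0.061) and with only the groups compared (FDR 0.069 and 0.091), the one with semaglutide also on log2(TPM + 1) (FDR 0.052) and the one with BI 456906 with library size alone (FDR 0.052). At 30 nmol/kg the value was -0.31 ± 0.20 (FDR 0.17). Without vehicle replicate 47, the lowest of its group, or without replicate 71, the highest at 30 nmol/kg, this value became -0.46 (FDR 0.033) and -0.45 (FDR 0.046). Of the 6 adipocyte markers, *Adipoq*, *Plin1* and *Lep* were at most 0.55, 0.37 and 0.14 TPM in any liver library, whereas *Cfd* reached 18.7 TPM, *Lipe* held 7.72 to 15.7 TPM and *Cidec* 9.21 to 165 TPM. Their summed level, of which *Cidec* was the largest part in vehicle (median 138 TPM), was lower in every treated group than in vehicle. Its median was 160 TPM in vehicle (54.3 to 195), and the treated groups had medians of 34.3 to 76.04 TPM. At the ratio of *Ace* to *Adipoq* in vehicle eWAT, the *Adipoq* level of any liver library would go with at most 0.024 TPM of *Ace*. This assumes that the ratio holds in liver, and the part of these markers in the *Ace* values was not tested. An antisense gene, Gm11651, overlaps *Ace* and could share its reads where strand was not used.

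*Atp6ap2*, the (pro)renin receptor, was the steadiest member. Its group means differed by at most 1.15-fold. The 42 liver libraries held 19.4 to 28.4 TPM (median 24.1), and no group was apart from vehicle. It passed the test only at 20 nmol/kg of BI 456906, where its log2 change was -0.16 ± 0.06 (FDR 0.035), and at 30 nmol/kg the value was 0.07 ± 0.06 (FDR 0.34). On log2(TPM + 1) the value at 20 nmol/kg was -0.06 (FDR 0.54), and the call was also lost without the filter (-0.15, FDR 0.087) and with only the groups compared in the fit (-0.15, FDR 0.10).

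**Figure D2:**
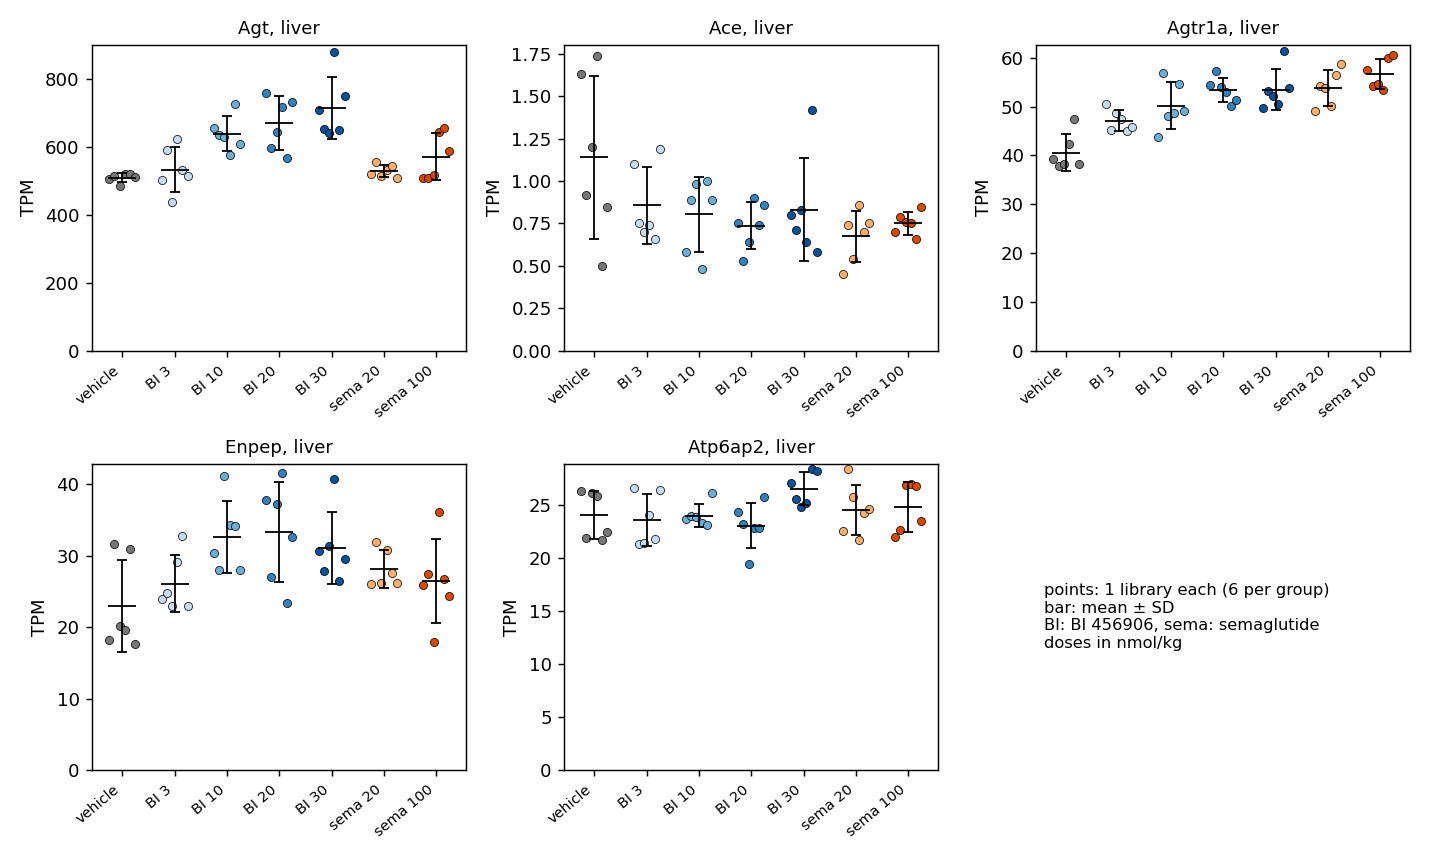
Liver expression in TPM of *Agt*, *Ace*, *Agtr1a*, *Enpep* and *Atp6ap2* in the 7 groups (1 point per library, bar at the mean with SD, n = 6). *Agt* climbs with BI 456906, from 510 ± 14 TPM in vehicle to 714 ± 91 TPM at 30 nmol/kg, and stands at 571 ± 69 TPM with semaglutide at 100 nmol/kg. *Agtr1a* climbs with both compounds.

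Over the doses, the count of the 5 members called in liver against vehicle was 0 at 3 nmol/kg, 3 at 10, 5 at 20 and 3 at 30 nmol/kg of BI 456906, and 2 at each dose of semaglutide. The share of all genes called was 13.4%, 37.5%, 45.9% and 58.8% for the BI 456906 doses and 46.5% and 48.2% for 20 and 100 nmol/kg of semaglutide, so the counts follow the background in most comparisons. At 3 nmol/kg 1 member, *Agtr1a*, had an unadjusted p under 0.05 (log2 change 0.16, FDR 0.067), and neither the edgeR quasi-likelihood test nor DESeq2 called any member. The linear slope over vehicle to 30 nmol/kg passed for *Agt*, *Agtr1a* and *Enpep*, 3 of 5 members, where 58.9% of all genes passed. These comparisons share the vehicle libraries.

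In eWAT the levels of the axis were arranged differently. In vehicle mice *Ace* was at 84.6 ± 11.6 TPM in eWAT and 1.14 ± 0.48 TPM in liver, 74.2 times higher in fat, and *Atp6ap2* was 4.27 times higher in fat (103 against 24.03 TPM). *Agt* was 10.9 times higher in liver (510 against 46.6 TPM) and *Agtr1a* 3.07 times (40.6 against 13.2 TPM). *Enpep* was at 32.9 ± 10.7 TPM in fat and 23.02 ± 6.44 TPM in liver. These levels come from tables of TPM made separately for each tissue, and no test was made of them.

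At 30 nmol/kg of BI 456906 *Agt*, *Ace* and *Agtr1a* rose in eWAT, 3 of the 5 members tested, and none fell. In this comparison 23.9% of the 18536 genes tested in eWAT were called and 10.9% were called higher. No member's TPM at 30 nmol/kg was apart from vehicle, which was so for 6.31% of all genes. The median log2 fold change of the 5 members was 0.45 against -0.03 for all genes. Marker levels of several cell types moved with these results: the summed adipocyte markers had medians of 7207 TPM in vehicle and 10697 TPM at 30 nmol/kg (5759 to 12753 and 5644 to 11994 TPM), the stellate, mural or fibroblast markers 1583 and 2326 TPM (1284 to 1882 and 1826 to 2650 TPM), and the macrophage markers 6086 and 4054 TPM (2876 to 7857 and 3393 to 8078 TPM). The mesothelial markers had medians of 41.8 TPM in vehicle and 93.3 TPM at 30 nmol/kg (8.48 to 82.4 and 43.6 to 142 TPM). For the bile duct markers the medians were 18.5 and 35.2 TPM (3.1 to 56.8 and 22.1 to 61.7 TPM). In eWAT 6 of 6 adipocyte, 5 of 6 stromal, 5 of 6 macrophage, 4 of 4 mesothelial and 3 of 4 bile duct markers had a median above 1 TPM. The part of these shifts in the results was not tested.

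*Agt* in eWAT held 23.1 to 70.2 TPM (median 40.9) in vehicle and 63.95 to 137 TPM (median 129) at 30 nmol/kg. The groups met only where the lowest library at 30 nmol/kg, replicate 29, lay below vehicle replicates 2 and 5. The log2 change was 1.29 ± 0.42 (FDR 0.023), a 2.44-fold rise. Of the 7 eWAT groups vehicle also had the highest median of liver transcripts, with hepatocyte marker sums of 32.5 to 7889 TPM (median 2260) against 26.2 to 1301 TPM (median 135) at 30 nmol/kg. At the liver's own ratio of *Agt* to these markers, replicate 2 of vehicle would carry 40.8 of its 70.2 TPM. With the carried amount taken off, vehicle stood at 22.9 to 59.9 TPM (mean 32.3 ± 13.7) and 30 nmol/kg at 62.5 to 137 TPM (mean 111 ± 32). These values assume that the liver's ratio holds for liver transcripts in eWAT, which was not tested. With the hepatocyte marker level as a covariate, an alternative chosen after the data were seen, the log2 change was 1.72 (FDR 0.0055). Because the marker level differed between these groups, its part in the *Agt* result cannot be told apart from that of the treatment. In the fit without the covariate and without vehicle replicate 1, the lowest library, the log2 change was 1.13 (FDR 0.062).

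*Agtr1a* in eWAT was at 8.12 to 17.2 TPM (median 13.4) in vehicle and 14.8 to 25.7 TPM (median 22.0) at 30 nmol/kg, a log2 change of 0.68 ± 0.20 (FDR 0.012), and the groups overlapped. It was lowest at 30 nmol/kg in the same library as *Agt*, replicate 29. *Ace* was at 68.5 to 104 TPM in vehicle and 97.5 to 146 TPM (median 116) at 30 nmol/kg, a log2 change of 0.45 ± 0.12 (FDR 0.0080), and the ranges met through vehicle replicate 2 only. *Enpep* (0.02 ± 0.27, FDR 0.96) and *Atp6ap2* (0.04 ± 0.17, FDR 0.88) did not pass. *Enpep* spread widely within groups, from 15.5 to 50.5 TPM at 30 nmol/kg, which limits what could be seen.

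**Figure D3:**
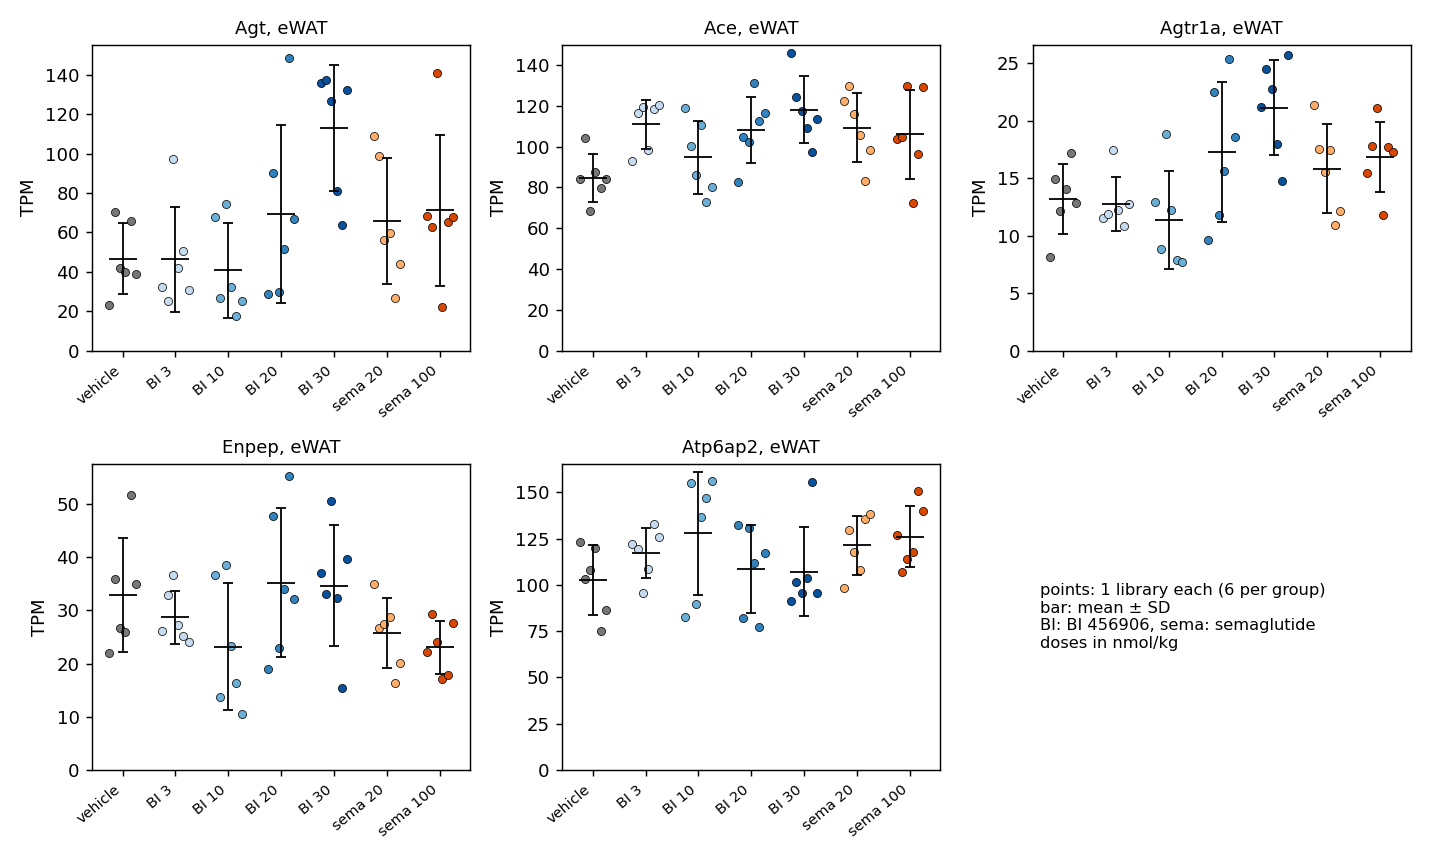
Expression in eWAT in TPM of the same 5 genes in the 7 groups (1 point per library, bar at the mean with SD, n = 6). At 30 nmol/kg of BI 456906 *Agt* stands at 113 ± 32 TPM against 46.6 ± 17.9 TPM in vehicle, with wide spread in the other groups.

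Below 30 nmol/kg and with semaglutide, limma/voom called none of the 5 members in eWAT. The share of all genes called was 0.00539% at 3, 0.513% at 10 and 4.27% at 20 nmol/kg of BI 456906, and 6.33% and 14.9% at 20 and 100 nmol/kg of semaglutide. Each of these 5 comparisons had 1 member with an unadjusted p under 0.05, *Enpep* at 10 nmol/kg of BI 456906 and *Ace* in the other 4. The quasi-likelihood test of edgeR called none, and DESeq2 called *Ace* at each semaglutide dose. *Ace* was above vehicle in each of them, by 0.39 ± 0.12 on the log2 scale at 3 nmol/kg (FDR 0.34) and by 0.35 ± 0.12 (FDR 0.082) and 0.32 ± 0.12 (FDR 0.074) with 20 and 100 nmol/kg of semaglutide. The slope over vehicle to 30 nmol/kg passed for *Agtr1a* (0.25 ± 0.06 per 10 nmol/kg, FDR 0.0014), *Agt* (0.43 ± 0.12, FDR 0.0065) and *Ace* (0.10 ± 0.04, FDR 0.038), where 29.5% of all genes passed.

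A difference between the compounds was not called for any of the 5 members in eWAT by limma/voom. At 20 nmol/kg the lowest FDR among them was 0.98, and *Agt* differed by -0.04 (95% interval -0.86 to 0.78). None of them had an unadjusted p under 0.05 there, and 0% of all genes were called. At 30 nmol/kg of BI 456906 *Agt* was above semaglutide at 20 nmol/kg by 0.88 (0.03 to 1.73, FDR 0.35) and *Agtr1a* by 0.43 (0.04 to 0.82, FDR 0.32). These were the members with an unadjusted p under 0.05 in that comparison, in which again 0% of all genes were called. Against 100 nmol/kg the *Agt* difference was 0.77 (-0.08 to 1.62, FDR 0.24), no member had an unadjusted p under 0.05, and 0.0108% of all genes were called. Neither edgeR nor DESeq2 called a member in these 3 comparisons. Sample quality weights give less weight to libraries that stand apart. With them, 30 nmol/kg of BI 456906 passed against 20 nmol/kg of semaglutide for *Agt* (0.94, FDR 0.023), *Agtr1a* (0.49, FDR 0.013) and *Atp6ap2* (-0.31, FDR 0.037). Against 100 nmol/kg it passed for *Agt* (0.80, FDR 0.035), *Agtr1a* (0.41, FDR 0.018), *Enpep* (0.61, FDR 0.012) and *Atp6ap2* (-0.43, FDR 0.0037). The share of all genes called under these weights was not counted for these comparisons, so the weighted calls have no background beside them.

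The difference of the response between tissues was tested as an interaction for 30 nmol/kg against vehicle over the 84 libraries. *Ace* differed, with a change that was higher in eWAT than in liver by 0.87 ± 0.25 on the log2 scale (FDR 0.0030), where 45.9% of the 15297 genes tested in both tissues differed. For *Agt* (1.00 ± 0.48, FDR 0.080) and *Agtr1a* (0.45 ± 0.20, FDR 0.061) a difference was not shown at this threshold, nor for *Enpep* (-0.26 ± 0.31, FDR 0.52) or *Atp6ap2* (0.08 ± 0.18, FDR 0.74).

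For each member in each tissue, ordering the 7 groups by mean TPM left all 6 neighbouring pairs overlapping. The liver order of *Agt* ran from vehicle through 20 nmol/kg of semaglutide, 3 nmol/kg of BI 456906 and 100 nmol/kg of semaglutide to 10, 20 and 30 nmol/kg of BI 456906. That of *Agtr1a* ran from vehicle through the 4 BI 456906 doses in order to 20 and then 100 nmol/kg of semaglutide. In eWAT *Agt* and *Agtr1a* were both lowest at 10 and highest at 30 nmol/kg of BI 456906, with means of 40.8 and 113 TPM for *Agt* and 11.4 and 21.1 TPM for *Agtr1a*.

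The genes whose log2 levels ran most nearly with a member were found by Pearson correlation over the 42 libraries of a tissue, which share 7 groups, so the values describe these libraries. For *Ren1* in liver they were *Fh1* (r = 0.88), *Sdc1* (0.86), *Gls2* (0.85), *Slc25a15* (0.84) and Gm5424 (0.83), the last a copy of an argininosuccinate synthase gene with which it can share reads. Of the deviations from the group means, the correlation was 0.62 for *Fh1* and 0.30 to 0.50 for the other 4. The *Ren1* correlations span the groups that chose this gene, so a gene with the same group pattern ranks high, and they are a description. In vehicle and at 3 nmol/kg *Ren1* was at 0 to 2 reads, where its log2 level depends on the value added. For *Agt* in liver the nearest genes were *Prlr* (0.86), *Sigirr* (0.83) and *Gls2* (0.81). For *Agt* in eWAT they were *Zfp503* (0.93), *Agtr1a* itself (0.93) and *Mindy4* (0.92), and within groups the correlation of *Agt* with *Agtr1a* was 0.90. Marker sums also varied within groups. At 30 nmol/kg of BI 456906 the macrophage sum was 3393 to 8078 TPM and the mesothelial sum 43.6 to 142 TPM. Their part in this correlation was not tested.

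A wider list of 19 genes held other receptors and peptidases that make, shorten or sense angiotensin peptides, of which 12 passed the count filter in liver and 15 in eWAT. In liver at 30 nmol/kg of BI 456906 1 of the 12 rose and 7 fell, a share of called genes near the 58.8% of all liver genes, with a median log2 change of -0.30 against -0.03 over all genes. *Lnpep*, the insulin-regulated aminopeptidase that binds angiotensin IV, rose by 1.98 ± 0.33 on the log2 scale (FDR 3.9e-06), from 0.26 to 0.50 TPM in vehicle to 0.72 to 3.79 TPM. *Lnpep* also rose with semaglutide, by 1.015 ± 0.36 (FDR 0.020) at 20 and 0.96 ± 0.36 (FDR 0.028) at 100 nmol/kg.

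*Mas1*, the receptor for angiotensin-(1-7), fell from 8 to 48 reads (median 24) in vehicle livers to no read in any of the 6 libraries at 30 nmol/kg. Against a floor of 3 reads per library it was at least 8.75-fold lower. With semaglutide it was lower as well, at 0 to 3 reads at 20 nmol/kg and 0 to 9 at 100 nmol/kg. *Mas1* passed the count filter mainly through vehicle, where it was high, since no treated group had a median above 7.5 reads. Its values are therefore a description, although it is counted among the genes that fell. *Mas1* is overlapped on the other strand by the long noncoding RNA *Airn*, and reads of the pair cannot be told apart where strand was not used. Placing *Mas1* at its bound leaves the median of the list where it is.

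The peptidases that fell at 30 nmol/kg in liver were *Ctsa* (by 0.75, SE 0.10, FDR 3.7e-08), *Thop1* (by 0.52, SE 0.07, FDR 9.0e-08), *Nln* (by 0.42, SE 0.06, FDR 2.9e-07), *Rnpep* (by 0.38, SE 0.05, FDR 1.3e-07), *Dpp3* (by 0.23, SE 0.06, FDR 0.0025) and *Mme* (by 0.60, SE 0.16, FDR 0.0015), on the log2 scale. *Ctsa* encodes the lysosomal carboxypeptidase cathepsin A, *Thop1* and *Nln* encode thimet oligopeptidase and neurolysin, which cut angiotensin I, and *Mme* encodes neprilysin. *Ctsa*, *Thop1*, *Nln* and *Rnpep* also fell at both semaglutide doses, by 0.15 to 0.54. *Mme* had a different outcome in TPM: its mean was 11.97 ± 2.48 TPM in vehicle and 11.15 ± 3.98 TPM at 30 nmol/kg, and on log2(TPM + 1) the change was -0.13 (FDR 0.58).

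In eWAT at 30 nmol/kg 2 of the 15 fell and none rose, where 23.9% of all eWAT genes were called, with a median log2 change of -0.26 against -0.03 over all genes. *Nln* fell by 0.34 (SE 0.08, FDR 0.0017), and also with semaglutide by 0.32 at 20 (FDR 0.010) and 0.35 at 100 nmol/kg (FDR 0.0023). *Lnpep* fell by 0.30 (SE 0.09, FDR 0.011), and this call was lost without vehicle replicate 3 or without replicate 27 or 29 at 30 nmol/kg (FDR 0.054, 0.063 and 0.094), with library size alone (FDR 0.053), with quality weights (-0.15, FDR 0.083) and with only the groups compared (FDR 0.19). Mast cell proteases that can form angiotensin II were abundant in vehicle eWAT, with *Cma1* (mast cell chymase) at 27.5 to 318 TPM and *Mcpt4* at 38.03 to 342 TPM. Their changes of -0.38 ± 0.52 (FDR 0.63) and -0.57 ± 0.49 (FDR 0.42) at 30 nmol/kg did not pass.

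**Figure D4:**
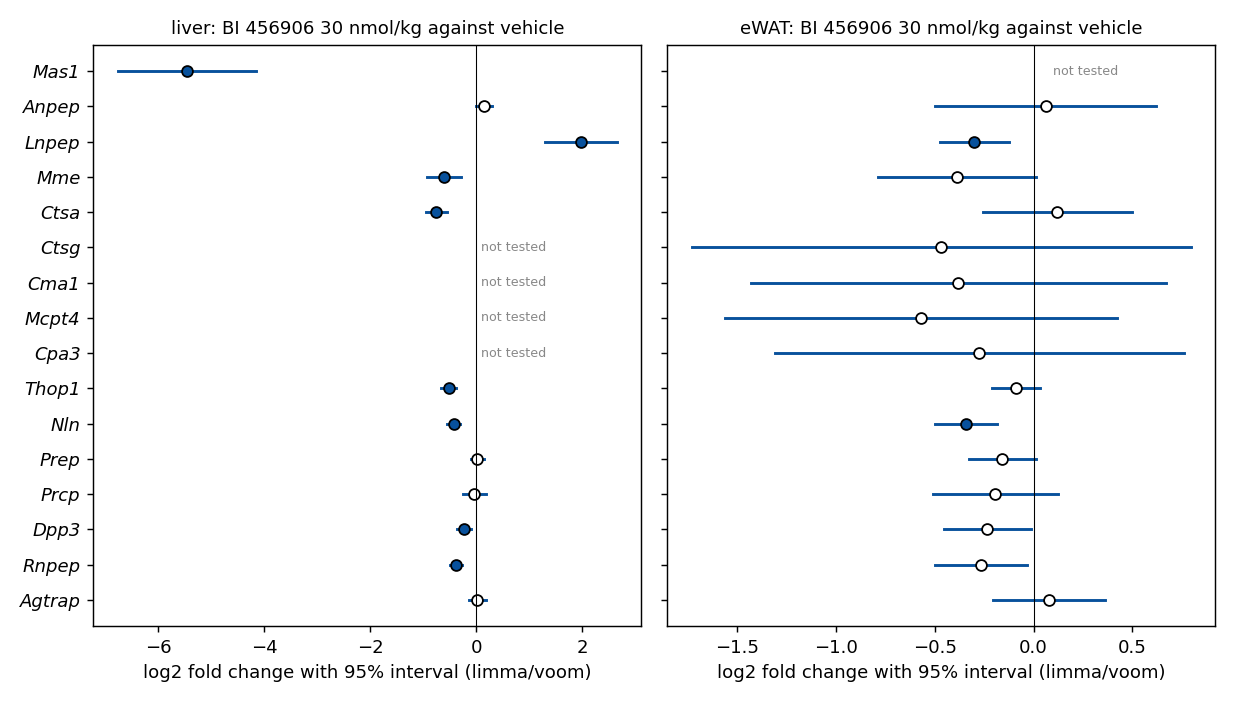
Log2 fold change with its 95% interval (limma/voom) at 30 nmol/kg of BI 456906 against vehicle for the 16 genes of the wider list tested in at least 1 tissue, in liver (left) and eWAT (right) with different horizontal scales. Filled points have an FDR of at most 0.05, and *Lnpep* in liver is the only filled point to the right of 0, while in eWAT it lies to the left of 0. The value drawn for *Mas1* in liver is a fitted one and depends on the value added to its counts.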

How the data were processed

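Liver and eWAT of the mice described above were sequenced as 84 libraries on 1 flow cell. According to its methods the study made directional libraries from poly(A) RNA, sequenced them as read pairs, counted them with featureCounts and tested them with limma/voom, while the labels describe another kit with single-end reads, so the use of strand is not settled. The submitters' processing notes name STAR 2.5.2b, RSEM 1.3.0, featureCounts 1.5.1, FastQC 0.11.5 and the builds mm10 and GRCm38. The deposited count-like signal holds the reads of each gene divided by 1 factor per library, and 100% of its values were whole multiples of the library's step within 0.1 of a read, so whole reads were recovered. TPM was used as deposited by the authors. Identifiers were paired with symbols and coordinates through GENCODE M21 on GRCm38 (48434 of 48794).

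Differences were tested on the deposited signal by limma/voom, with limma 3.58.1 and edgeR 4.0.16 in R 4.3.3, in 1 fit of 42 libraries per tissue with TMM factors, a pseudocount of 0.5 and filterByExpr, and Benjamini-Hochberg adjustment (FDR) over all genes of a comparison. The filter kept 15964 genes in liver, where it kept all 6 members, and 18536 in eWAT, where it dropped *Ren1*. "Rose" and "fell" mean an FDR of at most 0.05. Intervals are 95% intervals. Changes on log2(TPM + 1) understate those of low genes. The floor was 3 reads per library, and read ratios carry exact (Clopper-Pearson) intervals that cover counting error only. Depth therefore limits *Ren1* and *Mas1* most.

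Alternatives were other scaling factors, filters, weights, groups in the fit, limma on TPM, the edgeR quasi-likelihood test and DESeq2 1.42.0 on recovered reads, and leaving out each library of vehicle and of 30 nmol/kg. The procedures were tested on simulated data. Library numbers differ between all groups, so no pairing was used. The members, the wider list, the markers and the rule for named genes (the 6 members, those of the wider list called at 30 nmol/kg, the 5 genes most like *Ren1* in liver and the 3 most like *Agt* in each tissue) were chosen with earlier results of these data known. *Cma1* and *Mcpt4* were named after their values were seen. One gene of the wider list is not reported here.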

Additional observations from a re-analysis of the deposited data

Results flagged for a closer look

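In 13 of 84 groups of 6 libraries (6 members, 7 groups, both tissues) the highest library stood apart from the others in TPM, with a gap to the next library, relative to the range of the group, above the 95% critical value of Dixon's test. Chance alone gives about 1 in 20 such groups where values are normally distributed, a condition that *Ren1* values at or near 0 TPM do not meet. In liver these were *Ren1* in replicate 55 at 10 nmol/kg of BI 456906 (0.79 TPM on 5 reads, others up to 0.26 TPM) and in replicate 81 with semaglutide at 100 nmol/kg (0.19 TPM on 8 reads, others up to 0.02 TPM), *Atp6ap2* in replicate 60 at 10 nmol/kg (26.1 TPM, others 23.1 to 23.97 TPM), and 3 values at 30 nmol/kg. The last were *Ace* (1.42 TPM, others 0.58 to 0.83 TPM) and *Agtr1a* (61.5 TPM, others 49.6 to 53.8 TPM), both in replicate 71, and *Enpep* in replicate 70 (40.8 TPM, others 26.4 to 31.3 TPM).

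In eWAT *Ren1* stood apart in replicate 2 of vehicle (0.09 TPM on 1 read), replicate 13 at 10 nmol/kg of BI 456906 (0.6 TPM, 23 reads), replicate 31 with semaglutide at 20 nmol/kg (0.39 TPM, 15 reads) and replicate 40 with semaglutide at 100 nmol/kg (1.14 TPM, 48 reads). *Agt* (97.3 TPM, others 25.4 to 50.7 TPM) and *Agtr1a* (17.4 TPM, others 10.8 to 12.7 TPM) both stood apart in replicate 9 at 3 nmol/kg of BI 456906. *Atp6ap2* stood apart in replicate 29 at 30 nmol/kg (155 TPM, others 91.3 to 104 TPM), the library that was lowest of its group in *Agt*, *Ace*, *Agtr1a* and *Enpep*.

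The change at 30 nmol/kg of BI 456906 against vehicle differed between tissues, by the interaction test, for 4 of the 16 members and wider-list genes tested in both tissues, where 45.9% of all genes tested differed. On the log2 scale eWAT minus liver was 0.87 ± 0.25 for *Ace* (FDR 0.0030), 0.98 ± 0.21 for *Ctsa* (FDR 8.0e-05), 0.53 ± 0.09 for *Thop1* (FDR 2.8e-06) and -2.17 ± 0.30 for *Lnpep* (FDR 1.0e-08). *Lnpep* rose in liver, and its fall in eWAT passed in 18 of 24 alternatives.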

How the results depend on the processing

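No called value of a member changed sign under any alternative run. The count of the 5 members called against vehicle in liver moved as follows. At 20 nmol/kg of BI 456906 it was 5, and 3 without the filter, on log2(TPM + 0.1) or with only the groups compared in the fit. With semaglutide at 100 nmol/kg it was 2, and 1 without the filter, on log2(TPM + 1), on log2(TPM + 0.1) or with only the groups compared. At 3 nmol/kg it was 0, and 1 on either TPM scale and 3 with sample quality weights. In eWAT the count moved from 0 to 1 with DESeq2 at each semaglutide dose and from 0 to 2 with quality weights at 10 nmol/kg of BI 456906. Quality weights also moved the number of all eWAT genes called at 30 nmol/kg from 4432 to 7299. All genes called under the alternatives were counted only for 30 nmol/kg against vehicle, so the other moves have no background share beside them. The cause of these moves was not tested, except that the test without the filter adjusts over more genes.

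With each library of vehicle and of 30 nmol/kg left out in turn, the members called at 30 nmol/kg numbered 2 to 4 in liver and 2 to 3 in eWAT, all genes called numbered 8908 to 9422 in liver and 3410 to 4709 in eWAT, and the tissue difference of *Ace* was 0.70 to 1.03 and passed each time. The liver *Agt* rise at 30 nmol/kg ranged from 0.33 to 0.48 on the log2 scale over 23 alternatives and the *Agt* difference at 20 nmol/kg between compounds from 0.32 to 0.35 over 10, and both passed in all of them. The slope of *Enpep* in liver (0.07, FDR 0.26) and of *Ace* in eWAT (0.04, FDR 0.47) did not pass without vehicle in the slope, and that of *Agt* in eWAT did not pass on log2(dose + 1) (FDR 0.055). *Ren1* could not be tested with at least 10 reads required in every library. No paired analysis was possible because the groups share no library numbers.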
